A study of Mus musculus with 24 samples.

Results

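Organ of Corti (OC) explants that had received pioglitazone and gentamicin together for 24 h (PIO+GM) were compared, gene by gene, with explants kept for 24 h without drugs (CTRL). The 6 libraries were chosen by their labels alone, 3 with both drugs and 3 controls, out of 24 libraries in 8 groups. The OC is the sensory epithelium of the cochlea. All OCs came from 5-day-old C57BL/6N mice of both sexes and spent 24 h in penicillin-containing medium before any drug, so this antibiotic was common to treated and control cultures. PIO+GM cultures then received 50 μM gentamicin and 10 μM pioglitazone, and CTRL cultures medium without drugs. The 24 h groups with 50 μM gentamicin alone (GM) or 10 μM pioglitazone alone (PIO), and the 6 h groups, are used only to place the combined treatment. Each library held RNA of 6 pooled OCs. The sources do not say which pups gave which OCs, so p-values measure the spread between these pools.

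Pioglitazone is an agonist of PPAR-γ, a nuclear receptor that forms a dimer with RXR on DNA and turns on genes of lipid storage, fatty acid handling and, through overlap with its relatives PPAR-α and PPAR-δ, fatty acid oxidation. Gentamicin is an aminoglycoside antibiotic that enters sensory hair cells through their mechanotransduction channels and damages them. Hair cells, supporting cells, fibroblasts, Schwann cells, nerve fibres and macrophages are all found in such an explant, and a whole-explant library adds up their RNA.

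Libraries of the 24 h groups held between 11516308 and 15548856 counted reads, so that 3 counts correspond to between 0.193 and 0.260 CPM (counts scaled to a common library size). The CTRL libraries carried the RNA of the labelled tissue. Myo7a, a hair cell myosin, lay between 82.1 and 94.9 CPM and Sox2, a supporting cell transcription factor, between 63.0 and 77.1 CPM, but transcripts of the mesenchymal collagen gene Col3a1 were also present, at 1426 to 2165 CPM. The pools differed in Y-linked transcripts. The summed CPM of Y-linked genes was 348, 380 and 170 in the PIO+GM libraries against 376, 84.6 and 1.22 in the CTRL libraries. The part of this difference in the results was examined only by adding the log2 of that sum plus 1 as a covariate, an alternative chosen after the data were seen.

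The number of genes called at 24 h depended on the fit. Of 16317 genes tested, 78 passed an adjusted p of 0.05 (edgeR, quasi-likelihood), which is 0.478% of those tested. 22 genes were higher (0.135%) and 56 lower (0.343%). DESeq2 called 254 of the 17178 genes to which it gave an adjusted p (1.48%, 0.466% higher and 1.01% lower), the likelihood ratio test of edgeR 225, the 12 libraries of 24 h fitted alone 276 and the fit with the replicate number as a block 318, whereas the 6 libraries fitted alone gave 40. The 1476 genes at an unadjusted p under 0.05 made up 9.05%. In each of the 78 the CPM of the 3 PIO+GM libraries did not overlap those of the 3 CTRL libraries. The calls rest on these same values, so the lack of overlap in a called gene is description and no added support. Of all genes, 10.9% lay wholly above and 10.2% wholly below. The calls were sensitive to single libraries. Without PIO+GM replicate 3, 15 genes remained significant in all, and without PIO+GM replicates 1 or 2 there were 26 and 19. Leaving out CTRL replicates 1, 2 or 3 gave 39, 73 and 19 calls. 7 of the 22 higher genes and 4 of the 56 lower genes were called in each of these 6 fits, and 21 of the 78 in none. With the Y-linked covariate, 20 of the 22 and 33 of the 56 kept their call. Among the named genes, Obox6, Plscr5, 4930558C23Rik, Tunar, Serping1, Grm3 and Gria3 lost it, with edgeR adjusted p-values from 0.0515 (Plscr5) to 0.0832 (Tunar).

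The 11 genes that were called whichever library was left out had log2 fold changes of one direction throughout. The higher ones included Angptl4 and Cpt1a, which act in lipid and fatty acid metabolism, and Crx, Gm3336, Fer1l4 and Trim17. The lower ones were Lrtm2, Grik1, Unc13c and Plppr5, of which the last 3 were named after their values were seen.

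5 genes of fatty acid handling rose. A list of 40 PPAR targets and fatty acid oxidation genes had 36 members that passed the filter on low counts, and the other 4, Fabp4, Cidec, Adipoq and Aqp7, were too scarce to be tested. 5 of the 36 were higher, against 0.135% of all genes, and 0 lower. The median log2 fold change of the list was 0.29, that of all genes tested was -0.00, and 30 of the 36 values were above 0. Those described here act at different steps: Angptl4 is a secreted inhibitor of lipoprotein lipase, Cpt1a carries long-chain fatty acids toward mitochondrial oxidation, Acadl catalyses the first oxidation step of long chains, and Pdk4 restrains the entry of pyruvate into the citric acid cycle.

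Upstream sequences were found in the RefSeq promoter table (GRCm38.p6) for 3 of these 5 genes. They are shown because PPAR and RXR bind repeats of the half-site AGGTCA, and these 3 genes moved together. Each run gives the 250 bases before the start on the gene's strand, 5′ to 3′, with matches to AGGTCA on either strand in capitals.
Cpt1a, chr19:3323051-3323300, plus strand: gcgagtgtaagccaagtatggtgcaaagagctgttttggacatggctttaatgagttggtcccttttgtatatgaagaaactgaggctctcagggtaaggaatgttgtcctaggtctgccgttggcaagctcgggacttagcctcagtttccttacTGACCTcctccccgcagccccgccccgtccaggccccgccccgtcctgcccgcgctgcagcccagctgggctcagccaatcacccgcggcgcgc
Acadl, chr1:66863310-66863559, minus strand: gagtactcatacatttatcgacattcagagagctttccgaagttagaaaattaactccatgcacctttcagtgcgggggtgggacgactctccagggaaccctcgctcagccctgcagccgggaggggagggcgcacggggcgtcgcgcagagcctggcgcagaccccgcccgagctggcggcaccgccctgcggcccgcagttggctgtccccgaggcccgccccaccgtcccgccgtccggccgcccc
Pdk4, chr6:5496279-5496528, minus strand: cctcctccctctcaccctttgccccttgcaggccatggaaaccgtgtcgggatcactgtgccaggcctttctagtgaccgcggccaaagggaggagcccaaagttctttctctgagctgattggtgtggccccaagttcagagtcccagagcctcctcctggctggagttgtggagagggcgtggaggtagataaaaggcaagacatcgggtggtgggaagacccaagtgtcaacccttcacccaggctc
The half-site was present once, in Cpt1a, with its first base 94 bases before the start. Of the 32851 promoter windows of this length in the table, 14.0% held it. Of the 30 list genes with an entry, 8 held it in any of their windows, a count by gene that cannot be set against the share by window. Copies of AGGNCA in tandem with 1 base N between them, searched on both strands, were in none of the 3 and in 0.338% of all windows. A match or its absence in these windows is a description of letters only.

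Angptl4 (chromosome 17, 33773750 to 33781830 in GENCODE M21 on GRCm38, minus strand) reached 87.8, 83.5 and 60.8 CPM in the PIO+GM libraries against 7.82, 9.78 and 7.86 CPM in CTRL. Every treated library was thus far above every control, with a log2 fold change of 3.18 ± 0.43 (SE, n = 3 per group, edgeR adjusted p = 0.00141). With pioglitazone alone its CPM was 70.4, 107 and 84.1, and with gentamicin alone 10.6, 15.1 and 10.7. Cpt1a gave 191, 184 and 164 CPM against 76.1, 91.8 and 80.1 CPM, with the lowest p of all genes (log2 fold change 1.12 ± 0.12, edgeR adjusted p = 0.00017). The Cpt1a groups were well separated, and the PIO libraries, at 165 to 193 CPM, overlapped those of the combined treatment.

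Acadl and Pdk4 changed less firmly. Acadl was at 70.6, 79.8 and 68.1 CPM against 45.9, 52.3 and 43.5 CPM (log2 fold change 0.62 ± 0.12, edgeR adjusted p = 0.0192), with no overlap. It kept its call in 1 of the 6 fits that left out a library, where its fold change lay between 0.55 and 0.71 and its adjusted p reached 0.125. Pdk4, at 24.0, 24.7 and 28.4 CPM against 10.3, 6.54 and 11.1 CPM, had an adjusted p of 0.0469 (edgeR) and was called in none of the 6, where its adjusted p reached 0.174. Further enzymes of mitochondrial fatty acid oxidation did not pass the test but had unadjusted p-values under 0.05 in edgeR. Hadha, a subunit of the trifunctional protein, was at 150, 153 and 158 CPM against 123, 131 and 120 CPM (adjusted p = 0.129), and Acadvl, the very-long-chain acyl-CoA dehydrogenase, at 108, 97.5 and 108 CPM against 73.5, 72.9 and 80.1 CPM (adjusted p = 0.141). Altogether 11 of the 36 had an unadjusted p under 0.05 with a higher level and 0 with a lower one, where 3.22% of all genes did so on the higher side. Cd36 and Lpl, which bring fatty acids into cells, had log2 fold changes of 0.71 ± 0.41 and 0.66 ± 0.40 (edgeR adjusted p = 0.689 and 0.701).

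**Figure D1:**
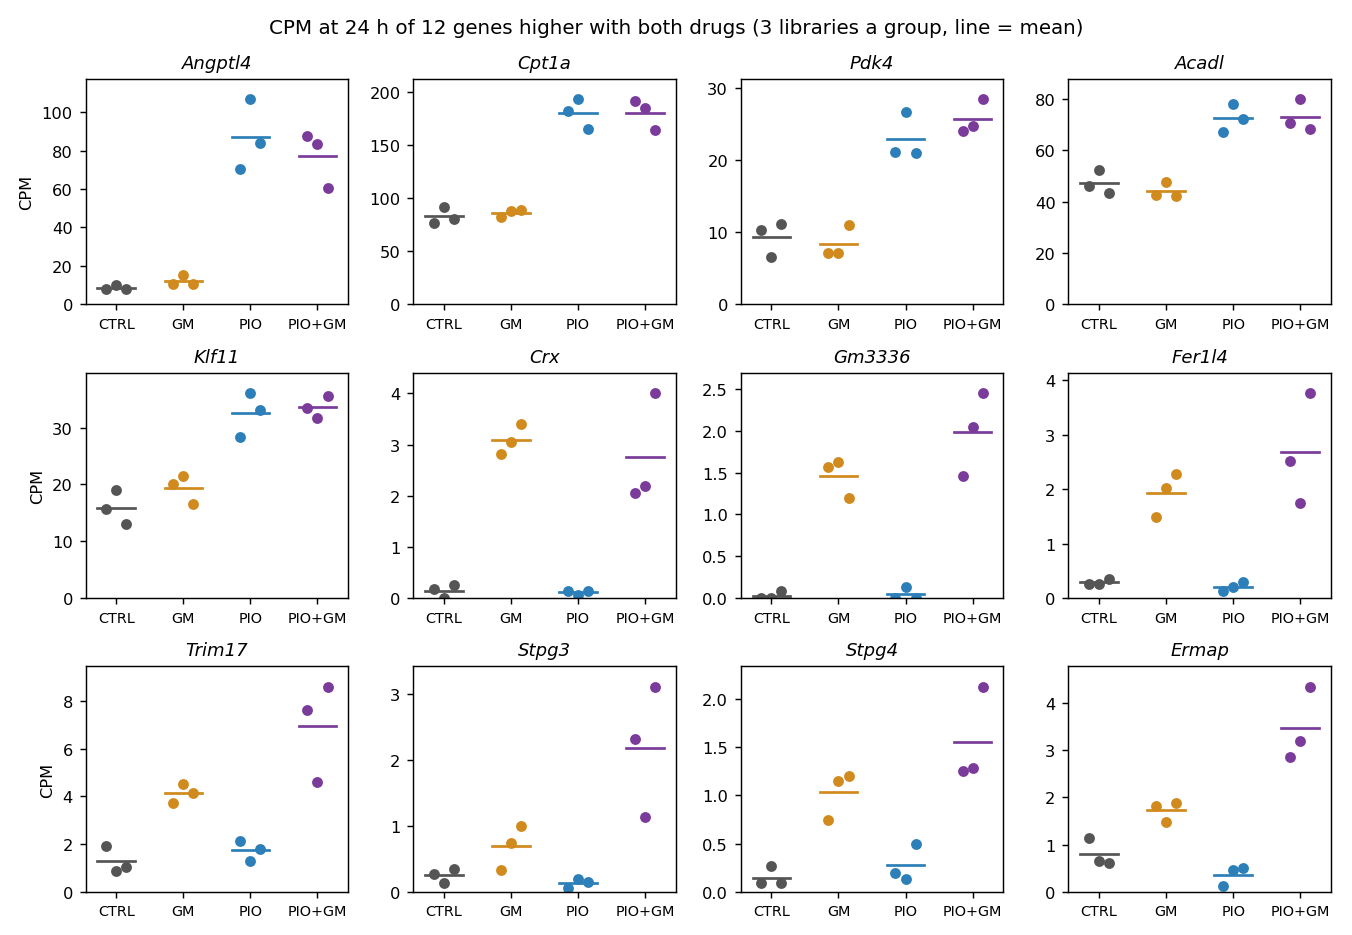
CPM (linear axes from 0) in each library of the 4 groups at 24 h for 12 genes that were higher with both drugs, with a line at the mean of 3 libraries. Angptl4, Cpt1a, Pdk4, Acadl and Klf11 sit at like levels in PIO and PIO+GM, whereas Crx, Gm3336, Fer1l4, Trim17, Stpg4 and Ermap lie above CTRL in the GM libraries too and Stpg3 is highest with both drugs.

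Klf11, a Krüppel-like transcription factor on no list and named after its values were seen, was also among the higher genes. It was at 33.5, 31.7 and 35.6 CPM with both drugs against 15.7, 19.0 and 13.0 CPM in CTRL (log2 fold change 1.08 ± 0.18, edgeR adjusted p = 0.00772), and at 28.4, 36.1 and 33.1 CPM with pioglitazone alone. It lost its call without PIO+GM replicate 3 or CTRL replicate 3, where its adjusted p reached 0.0631. Among 15 LXR target and cholesterol efflux genes, 0 passed in edgeR, against 0.135% of all genes on the higher side. There, 2 had an unadjusted p under 0.05, both higher, against 3.22% of all genes. One of them, the cholesterol exporter Abca1, was at 1016, 903 and 729 CPM against 510, 522 and 419 CPM (log2 fold change 0.87 ± 0.21, edgeR adjusted p = 0.0663), and it was the only member called by DESeq2, which called 0.466% of all genes on the higher side. The other was Mylip, the ubiquitin ligase that removes the LDL receptor (log2 fold change 0.39 ± 0.14, adjusted p = 0.299).

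The other group of higher genes was scarce in these explants. 16 of the 22 had a mean below 5 CPM over the 6 libraries. The 12 largest changes that met the naming rule included 11 of this kind beside Angptl4. Apart from Trim17, these 11 were too scarce to be tested under a filter of at least 10 counts in every library. Crx, a homeobox factor best known from photoreceptors, was at 2.05, 2.20 and 4.01 CPM with both drugs and at 0.176, 0 and 0.262 CPM in CTRL, from 109 against 5 counts (log2 fold change 4.25 ± 0.50, edgeR adjusted p = 0.000409). It was at 2.81, 3.04 and 3.40 CPM with gentamicin alone and at 0.129, 0.0651 and 0.143 CPM with pioglitazone alone. The levels with both drugs thus overlapped those with gentamicin and were far above those with pioglitazone.

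Gm3336 had 79 counts in the 3 PIO+GM libraries and 1 in CTRL, a ratio after library size of 75.0 with an exact 95% counting interval of 13.1 to 2998 (edgeR adjusted p = 0.00852). Obox6, an oocyte-specific homeobox gene, had 51 and 1, a ratio of 48.4 (interval 8.30 to 1949, edgeR adjusted p = 0.0286). Pnpla1, a lipase family member of skin, had 51 and 3, a ratio of 16.1 (interval 5.22 to 80.8, edgeR adjusted p = 0.011). These intervals cover counting error only. Obox6 was called in none of the 6 fits that left out a library (adjusted p 0.0729 to 0.139) and had an adjusted p of 0.0556 with the Y-linked covariate, and Pnpla1 lost its call without PIO+GM replicate 3 or CTRL replicate 1 (adjusted p up to 0.0619). The 3 genes had 0 to 2 counts in each CTRL library, and their fitted fold changes are not printed because they depend on the prior count. At 24 h the 3 genes had more than a few counts only in the groups with gentamicin. They thus passed the filter on low counts through groups where they were high. Obox6 and Crx are neighbours on chromosome 7 (15833241 to 15839678 and 15865947 to 15879968, both on the minus strand), and Gm3336 and Pde4c lie next to each other on chromosome 8 (70718543 to 70722634 and 70723720 to 70751186, both on the plus strand). Whether the members of each pair share reads beyond their annotated ends was not tested.

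Fer1l4, a ferlin family gene, was at 2.52, 1.74 and 3.76 CPM against 0.264, 0.264 and 0.349 CPM in CTRL (log2 fold change 3.15 ± 0.40, edgeR adjusted p = 0.000815). Trim17, a ubiquitin ligase, was at 7.61, 4.62 and 8.59 CPM against 1.93, 0.859 and 1.05 CPM (log2 fold change 2.45 ± 0.33, edgeR adjusted p = 0.00141). Both groups were apart in each gene, and the GM libraries lay between them or within the treated range. Stpg3 and Ermap, an erythroid membrane protein, stood above both single drugs. Stpg3 was at 2.32, 1.14 and 3.11 CPM with both drugs, at 0.331 to 1.00 CPM with gentamicin and at 0.0643 to 0.195 CPM with pioglitazone. Ermap was at 2.85, 3.18 and 4.33 CPM, at 1.49 to 1.87 CPM with gentamicin and at 0.129 to 0.501 CPM with pioglitazone, and the CTRL libraries lay between 0.611 and 1.14 CPM. The remaining members of the 12, Stpg4, Fut4-ps1, Pde4c and Aldh8a1, had log2 fold changes from 2.37 to 3.25 at means of 1.15 to 4.13 CPM with both drugs, and Fut4-ps1 and Pde4c were called in none of the 6 fits that left out a library.

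**Figure D2:**
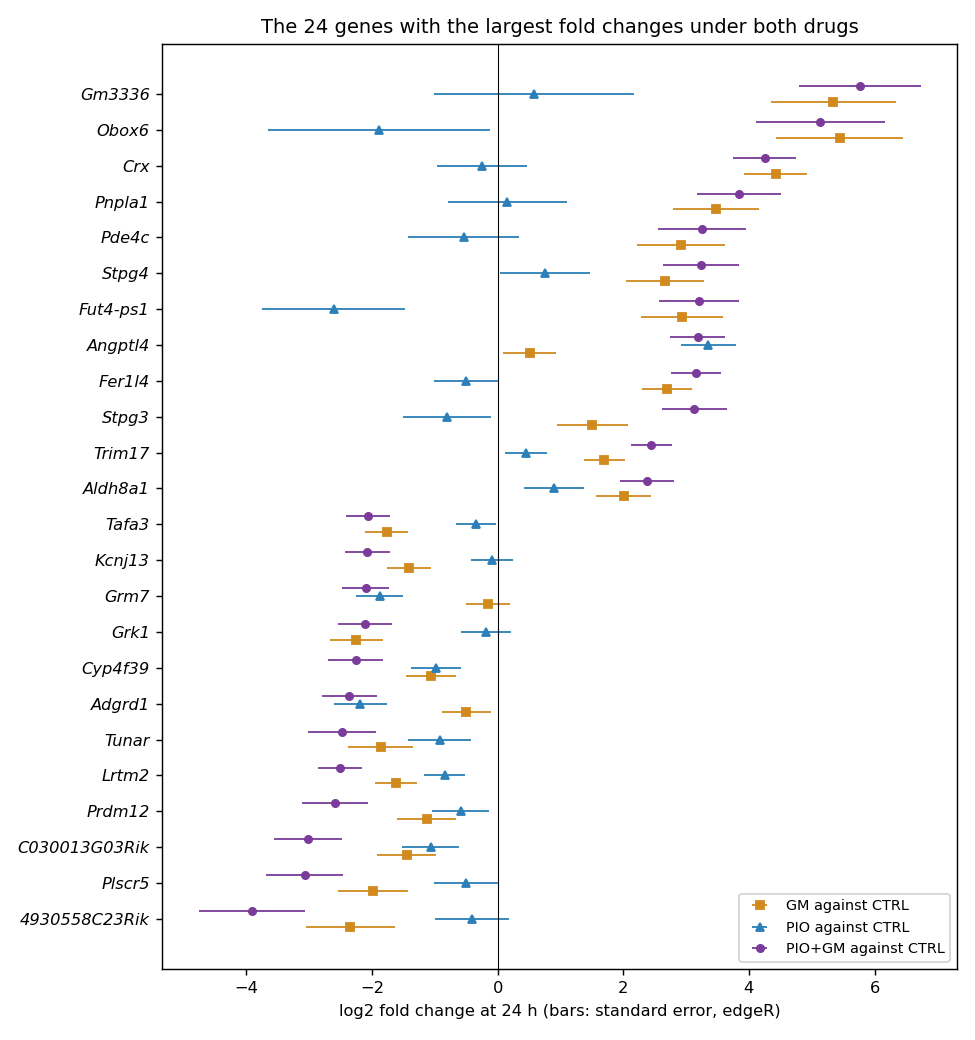
Log2 fold changes against CTRL at 24 h with standard errors (edgeR) for the 12 largest higher and 12 largest lower genes, with circles for PIO+GM, squares for GM and triangles for PIO. All 3 sets of points share the CTRL libraries, and points for Obox6, Gm3336, Pnpla1, Fut4-ps1 and 4930558C23Rik rest on few or no counts in some groups. Angptl4, Grm7 and Adgrd1 have PIO points near the PIO+GM points, while Crx, Grk1 and Tafa3 have GM points near them.

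In the other direction, 56 genes fell. 54 of them were on no list, and Postn and Serping1 were the exceptions. Postn (chromosome 3, 54361109 to 54391037, plus strand), the matrix protein periostin, was at 64.3, 48.2 and 52.8 CPM with both drugs and at 180, 172 and 234 CPM in CTRL (log2 fold change -1.82 ± 0.29, edgeR adjusted p = 0.00697). All treated libraries were far below the controls, and it was called in 4 of the 6 fits without a library, the exceptions being PIO+GM replicates 2 and 3, where its adjusted p reached 0.0545. With pioglitazone alone it was at 63.5, 55.4 and 47.7 CPM, and with gentamicin alone at 171, 182 and 180 CPM. Postn was the 1 of 15 fibroblast and mesenchyme markers that passed, against 0.343% of all genes, and the list had a median log2 fold change of -0.48. 6 of the 15 had a lower level at an unadjusted p under 0.05, against 5.83% of all genes, and in 7 the PIO+GM libraries lay below all CTRL libraries, against 10.2%. DESeq2 called 2 of the 15, both lower, against 1.01% of all genes. The list's summed level was 7470 to 8427 CPM with both drugs and 9963 to 10470 CPM in CTRL. Col3a1 was at 1017, 1004 and 740 CPM against 1633, 2165 and 1426 CPM (log2 fold change -0.92 ± 0.26, edgeR adjusted p = 0.13), and Fmod, fibromodulin, at 5.03, 2.5 and 4.01 CPM against 16.8, 7.13 and 9.86 CPM (log2 fold change -1.54 ± 0.55, edgeR adjusted p = 0.294). In whole explants, fewer cells of a type and less RNA per cell cannot be told apart.

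Grm7, a metabotropic glutamate receptor and one of the 12 largest decreases, was at 5.36, 2.20 and 3.19 CPM against 17.2, 12.8 and 16.4 CPM in CTRL (log2 fold change -2.10 ± 0.38, edgeR adjusted p = 0.0123). It was at 3.86 to 4.37 CPM with pioglitazone and at 9.86 to 19.7 CPM with gentamicin, and its call was lost without PIO+GM replicates 2 or 3 or CTRL replicate 3 (adjusted p up to 0.0887). Grik1, a kainate receptor subunit, was at 5.03, 5.00 and 5.15 CPM against 15.1, 14.6 and 20.0 CPM (log2 fold change -1.71 ± 0.27, edgeR adjusted p = 0.00532). Unc13c, which primes synaptic vesicles, was at 10.2, 6.29 and 8.75 CPM against 26.4, 23.5 and 27.9 CPM (log2 fold change -1.62 ± 0.25, edgeR adjusted p = 0.00532). Plppr5, a phospholipid phosphatase-related membrane protein, was at 5.56, 4.39 and 4.74 CPM against 11.2, 10.8 and 12.4 CPM (log2 fold change -1.22 ± 0.19, edgeR adjusted p = 0.00532). In all 4 genes the treated and control libraries were well apart. No list of synaptic genes was tested, and Grik1, Unc13c and Plppr5 were chosen after their values were seen. So were other lower genes with known roles in neurons, the AMPA receptor subunit Gria3 (log2 fold change -0.84 ± 0.18, edgeR adjusted p = 0.0377), the metabotropic receptor Grm3 (-1.21 ± 0.25, adjusted p = 0.0287), the scaffold Homer2 (-0.84 ± 0.15, adjusted p = 0.0123) and the growth cone protein Gap43 (-1.05 ± 0.23, adjusted p = 0.048), which were called in 0, 1, 3 and 0 of the 6 fits without a library. The Schwann cell and spiral ganglion neuron markers had 0 genes passing in edgeR and in DESeq2 among 20 and 19 tested, with medians of -0.05 and -0.39. At an unadjusted p under 0.05 there were 1 and 0, against 9.05% of all genes in either direction. Without CTRL replicate 2 the spiral ganglion median was 0.28.

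Serping1, the C1 inhibitor that restrains the classical complement pathway, was at 10.5, 9.77 and 10.1 CPM against 19.5, 16.9 and 34.3 CPM (log2 fold change -1.21 ± 0.24, edgeR adjusted p = 0.0227). CTRL replicate 3 was the highest library. Without it, the log2 fold change was -0.84 and the call was lost (adjusted p = 0.151), as it was without any 1 of the PIO+GM replicates. It was the 1 of 21 complement genes called in edgeR, against 0.343% of all genes, and DESeq2 called 3, all lower, against 1.01%. 8 of the 21 had an unadjusted p under 0.05 with a lower level, against 5.83% of all genes, and the list's median was -0.09, or -0.53 without PIO+GM replicate 2. The same CTRL library was the highest in the proteases C1ra (2.71, 2.80 and 3.03 CPM against 4.92, 3.83 and 13.8 CPM, edgeR adjusted p = 0.096) and C1s1 (11.2, 8.11 and 9.65 CPM against 19.9, 11.3 and 41.4 CPM, edgeR adjusted p = 0.118). For both, a copy shares part of the sequence: 42.1% of the 76-base windows of C1ra and 27.7% of those of C1s1 also occur in another gene.

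**Figure D3:**
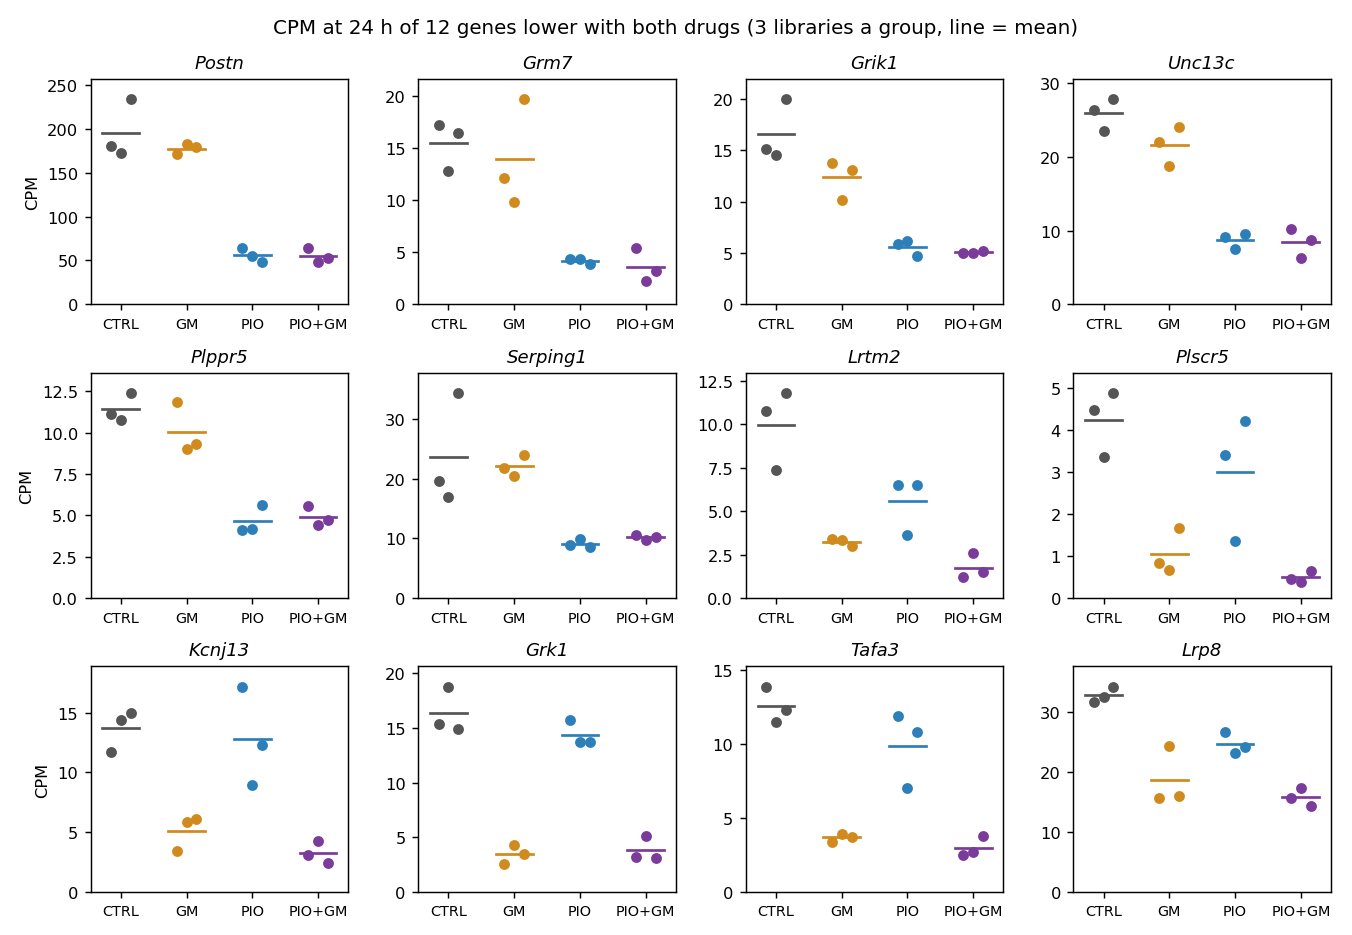
CPM (linear axes from 0) in each library of the 4 groups at 24 h for 12 genes that were lower with both drugs, with a line at the mean of 3 libraries. Postn, Grm7, Grik1, Unc13c, Plppr5 and Serping1 are low in PIO as well as in PIO+GM, and Plscr5, Kcnj13, Grk1, Tafa3 and Lrtm2 are low in GM as well as in PIO+GM.

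The 12 largest decreases also included Plscr5, a scramblase family member, at 0.463, 0.379 and 0.654 CPM with both drugs and at 4.48, 3.37 and 4.89 CPM in CTRL (log2 fold change -3.07 ± 0.61, edgeR adjusted p = 0.0261). Lrtm2, a leucine-rich repeat membrane protein, was at 1.19, 2.58 and 1.47 CPM against 10.7, 7.33 and 11.8 CPM (log2 fold change -2.50 ± 0.35, edgeR adjusted p = 0.0021). In both the GM libraries, at 0.676 to 1.67 CPM and 3.00 to 3.39 CPM, were nearer to the treated libraries than the PIO libraries, at 1.37 to 4.22 CPM and 3.64 to 6.51 CPM. Grk1, a kinase known from photoreceptors, was at 3.18, 5.08 and 3.11 CPM against 15.4, 18.8 and 14.9 CPM in CTRL, with 13.7 to 15.7 CPM with pioglitazone and 2.56 to 4.26 CPM with gentamicin (log2 fold change -2.11 ± 0.42, edgeR adjusted p = 0.0261). Kcnj13, an inward rectifier potassium channel, was at 3.11, 4.24 and 2.37 CPM against 11.7, 14.4 and 14.9 CPM (log2 fold change -2.07 ± 0.36, edgeR adjusted p = 0.011), and 39.9% of its 76-base windows also occur in transcripts of Gigyf2, inside which it lies. Tafa3, a secreted chemokine-like protein, was at 2.52, 2.73 and 3.76 CPM against 13.9, 11.5 and 12.3 CPM (log2 fold change -2.07 ± 0.35, edgeR adjusted p = 0.00852). 4930558C23Rik had 3 counts with both drugs and 46 in CTRL, a ratio of 0.0619 (exact 95% counting interval 0.0123 to 0.193, edgeR adjusted p = 0.0419).

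Adgrd1, an adhesion G protein-coupled receptor, was at 0.728, 0.530 and 1.31 CPM with both drugs and at 6.07, 2.11 and 5.06 CPM in CTRL (log2 fold change -2.36 ± 0.43, edgeR adjusted p = 0.0143), and at 0.578 to 1.37 CPM with pioglitazone. The last 4 of the 12, C030013G03Rik, Prdm12, Tunar and Cyp4f39, had log2 fold changes from -3.02 to -2.26. Apart from Lrtm2, each of the 12 lost its call in 2 to 6 of the 6 fits without a library, with adjusted p-values of at most 0.204. Grk1 lost it in all 6. Plac9a and Plac9b were both lower (log2 fold changes -1.48 and -1.33), but 99.6% of the 76-base windows of Plac9a are also found in Plac9b, so the counts of the pair cannot be assigned to one copy.

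Hair cell markers, transcripts of the cells that gentamicin damages, had the lowest median of the 24 lists, with no call in the main edgeR fit, which has no replicate block. Calls in this list against CTRL with the replicate block or the likelihood ratio test are not given here. In 30 genes, 0 passed in the main edgeR fit, where 14 had an unadjusted p under 0.05 with a lower level (46.7%, against 5.83% of all genes). DESeq2 called 4, all lower, against 1.01% of all genes. 29 of the 30 log2 fold changes were below 0, with a median of -0.77, and in 18 the 3 PIO+GM libraries lay below all CTRL libraries, against 10.2% of all genes. The mean log2 CPM of the list was 3.58, 3.01 and 3.77 with both drugs and 4.40, 4.11 and 4.60 in CTRL, so the groups did not overlap. With gentamicin alone it was 3.87, 3.53 and 4.18, and with pioglitazone alone 4.36, 3.49 and 4.31. Leaving out a library moved the median between -1.03 and -0.55.

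The markers closest to the threshold serve mechanotransduction, the hair bundle and efferent synapses. Lhfpl5, a part of the mechanotransduction channel complex, was at 3.71, 2.35 and 5.32 CPM against 12.4, 9.91 and 14.0 CPM (log2 fold change -1.67 ± 0.38, edgeR adjusted p = 0.0548). Chrna10, a nicotinic receptor subunit of outer hair cells, was at 8.80, 5.08 and 8.26 CPM against 20.7, 21.3 and 27.6 CPM (log2 fold change -1.65 ± 0.41, edgeR adjusted p = 0.0763), and 35.9% of its 76-base windows occur in another gene. Strc, the bundle protein stereocilin, was at 23.2, 11.7 and 21.9 CPM against 57.1, 36.6 and 65.1 CPM (log2 fold change -1.48 ± 0.38, edgeR adjusted p = 0.095). In these 3 genes no treated library reached a control. The outer hair cell genes Ocm and Slc26a5, for the calcium buffer oncomodulin and the motor protein prestin, were far lowest in replicate 2 of each group, and the groups overlapped. At each replicate number, both genes had the lower level with both drugs. Ocm was at 7.94, 0.227 and 8.18 CPM against 42.8, 7.13 and 68.1 CPM (log2 fold change -2.84 ± 1.04, edgeR adjusted p = 0.324), and Slc26a5 at 14.1, 1.59 and 13.4 CPM against 43.6, 5.62 and 60.4 CPM (log2 fold change -1.91 ± 0.88, edgeR adjusted p = 0.53). Transcription factors that define hair cells were less apart. Pou4f3 was at 8.80, 4.70 and 10.1 CPM against 9.58, 8.32 and 16.1 CPM, Gfi1 at 4.43, 3.86 and 6.13 CPM against 6.68, 5.88 and 7.42 CPM, and Atoh1 at 0.860, 2.35 and 1.80 CPM against 1.05, 3.04 and 1.22 CPM, with adjusted p-values from 0.762 to 0.989 (edgeR).

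**Figure D4:**
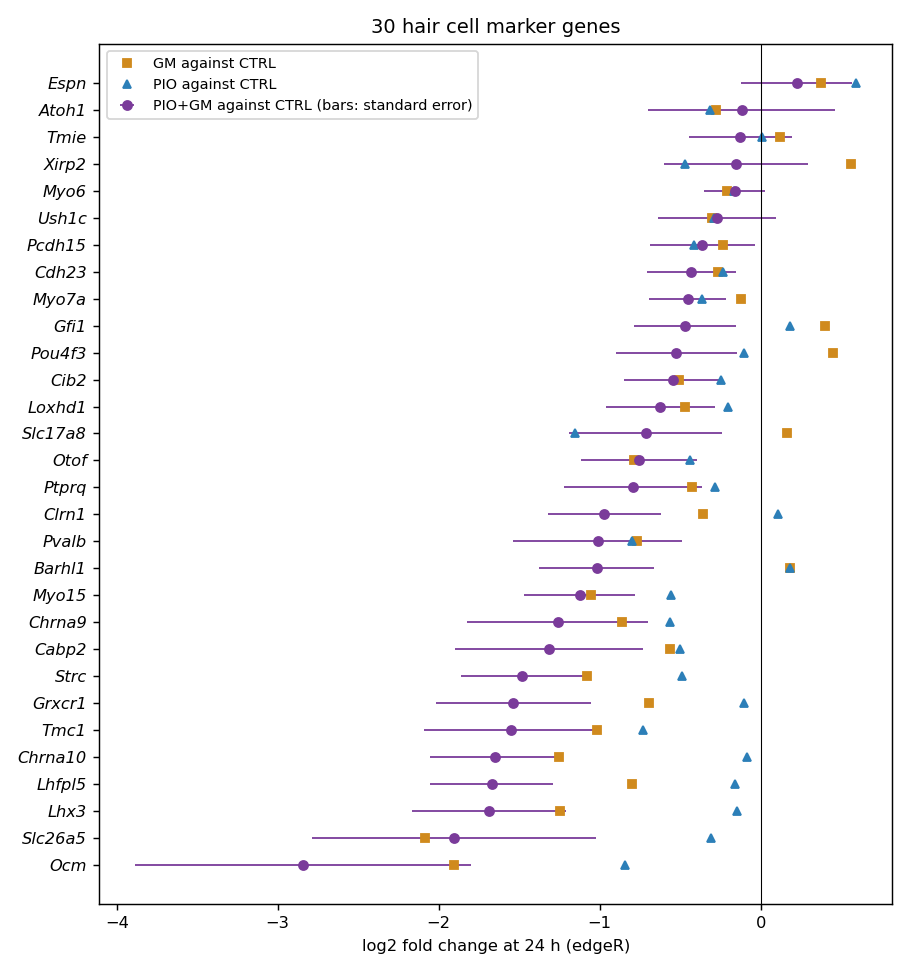
Log2 fold changes against CTRL at 24 h (edgeR) of the 30 hair cell markers, with circles and standard errors for PIO+GM, squares for GM and triangles for PIO, which share the CTRL libraries. 29 circles lie left of 0, from Ocm at -2.84 to Atoh1 at -0.12, and Espn at 0.22 is the exception.

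Among 22 supporting cell markers, 0 passed in edgeR and in DESeq2, and the median was -0.27. In edgeR 1 had an unadjusted p under 0.05, with a lower level (4.55%, against 5.83% of all genes). That member was Lgr6, a receptor for R-spondins, at 3.97, 7.20 and 2.94 CPM against 9.67, 13.1 and 8.21 CPM (adjusted p = 0.179). Hes5 and Lfng of the Notch pathway had log2 fold changes of -1.60 ± 0.77 and -0.75 ± 0.37 (adjusted p = 0.556 and 0.577). In the macrophage, endothelial and erythroid lists 0 genes passed in edgeR and in DESeq2. The medians were -0.08 for 24 macrophage markers, -0.22 for 15 endothelial and pericyte markers and 0.37 for 7 erythroid markers. In these lists 1, 0 and 1 members had an unadjusted p under 0.05 in edgeR, against 9.05% of all genes in either direction. Without PIO+GM replicate 2 the erythroid median was 0.0050.

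Sterol synthesis genes mostly had lower levels, with no call in edgeR. In 24 genes, 0 passed in edgeR, 1 in DESeq2 (lower, against 1.01% of all genes), and 9 had an unadjusted p under 0.05, all 9 with lower levels, against 5.83% of all genes on that side. 23 of the 24 log2 fold changes were below 0 and the median was -0.39. In 14 of the 24 the PIO+GM libraries lay below all CTRL libraries, against 10.2% of all genes. Hsd17b7 was at 57.0, 32.4 and 57.9 CPM against 155, 63.7 and 168 CPM (log2 fold change -1.39 ± 0.40, edgeR adjusted p = 0.14). Fdps, which makes farnesyl pyrophosphate, was at 20.6, 19.9 and 21.3 CPM against 35.7, 25.9 and 31.4 CPM (log2 fold change -0.59 ± 0.17, edgeR adjusted p = 0.151), and Sqle, squalene epoxidase, at 56.4, 50.8 and 58.7 CPM against 84.4, 62.5 and 69.8 CPM (log2 fold change -0.38 ± 0.13, edgeR adjusted p = 0.222).

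Interferon and chemokine genes gave no call in edgeR. The 42 antiviral interferon-stimulated genes had a median of -0.44 and 2 unadjusted p-values under 0.05, both lower, where 5.83% of all genes were, and leaving out CTRL replicate 3 brought the median to -0.11. The list's mean log2 CPM spanned 2.31 to 3.08 with both drugs and 2.46 to 3.67 in CTRL, so the groups overlapped. Ifit3b was at 4.04, 2.04 and 2.13 CPM against 11.1, 2.84 and 10.3 CPM (edgeR adjusted p = 0.502), with 35.3% of its 76-base windows found in another gene. The 30 antigen presentation and guanylate-binding protein genes had a median of -0.22, with 5 at an unadjusted p under 0.05, all 5 lower (16.7%, against 5.83% of all genes), among them the MHC class II genes H2-Aa and H2-Eb1 and the invariant chain gene Cd74 with log2 fold changes of -1.62 ± 0.69, -1.14 ± 0.46 and -1.32 ± 0.46. The 28 chemokine and cytokine genes had a median of -0.39, or 0.066 without CTRL replicate 3, and 3 at an unadjusted p under 0.05, all 3 lower (10.7%). These were Cxcl16 at 9.20, 7.04 and 5.81 CPM against 13.6, 12.9 and 18.2 CPM (edgeR adjusted p = 0.118), Il16 at 9.00, 9.62 and 6.38 CPM against 17.4, 22.7 and 16.1 CPM (edgeR adjusted p = 0.143), and the alarmin Il33 at 3.38, 6.36 and 5.07 CPM against 8.79, 14.8 and 9.08 CPM (edgeR adjusted p = 0.303). Of the 76-base windows of Cxcl16 and Il16, 18.6% and 22.1% occur in another gene. DESeq2 called 2 of these 28 genes, both lower, and 0 of the 42 antiviral and 30 antigen presentation genes, against 1.01% of all genes on the lower side.

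The list drawn from the genes that the study followed held 19 symbols, because its Toll-like receptor adaptor Mal was entered both as Mal, which in mouse is the symbol of a myelin protein gene, and as Tirap, the adaptor's own symbol. Of the 19, 0 passed in edgeR and 2 in DESeq2, both lower, against 1.01% of all genes, and the median was -0.31. Only Cxcl16 and Il16 had an unadjusted p under 0.05, both lower (10.5%, against 5.83% of all genes). Next came Gbp2 at 5.63, 4.70 and 4.83 CPM against 10.6, 5.35 and 14.1 CPM (edgeR adjusted p = 0.574), Tlr4 at 33.8, 29.1 and 28 CPM against 38.2, 32.2 and 47.2 CPM (adjusted p = 0.717), and Pias1, a SUMO ligase, at 83.5, 81.8 and 87.5 CPM against 81.7, 68.9 and 73.7 CPM (adjusted p = 0.769). The remaining 14 had adjusted p-values of 0.803 or more. Isg15, Ifi44, Ccl2, Ccl12 and Usp18 had log2 fold changes from -0.96 to -0.49 with standard errors of 0.61 to 1.07. Irf7, Tirap, Cxcl10, Mal, Myd88, Ccl9, Irf3 and Tlr2 had values from -0.31 to 0.09. The list was chosen by the study on these samples and is not independent evidence of a direction.

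Stress and death pathways gave no call in edgeR either. Of all genes, 0.478% passed and 9.05% had an unadjusted p under 0.05. In edgeR 0 genes passed among 41 Toll-like receptor pathway genes (median -0.04, 2 at an unadjusted p under 0.05), 37 JAK and STAT pathway genes (-0.03, 3), 25 p53 targets (0.03, 1), 28 integrated stress response genes (-0.06, 1), 30 NRF2 and antioxidant genes (-0.04, 1), 29 BCL2 family and caspase genes (-0.02, 2), 33 lysosome genes (0.04, 2) and 35 cell cycle genes (0.13, 2). DESeq2 called 1 gene in the BCL2 family and caspase list, lower, against 1.01% of all genes, and 0 in the other 7. Of the 76-base windows of Diablo and Ccnd1, 66.3% and 26% also occur in another gene. Casp12 of the caspase list was at 6.29, 6.21 and 5.64 CPM against 11.9, 9.84 and 14.6 CPM (log2 fold change -1.0 ± 0.27, edgeR adjusted p = 0.118), Diablo, which releases caspases from their inhibitors, at 63.2, 54.7 and 62.7 CPM against 49.1, 48.1 and 48.2 CPM (edgeR adjusted p = 0.299), and cyclin D1, Ccnd1, at 31.0, 45.2 and 25.8 CPM against 50.5, 107 and 47.6 CPM (edgeR adjusted p = 0.187). Slc7a11, the cystine transporter, was at 31.7, 20.0 and 26.8 CPM against 68.9, 20.4 and 65.7 CPM (edgeR adjusted p = 0.405), so that 1 control lay among the treated libraries.

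**Figure D5:**
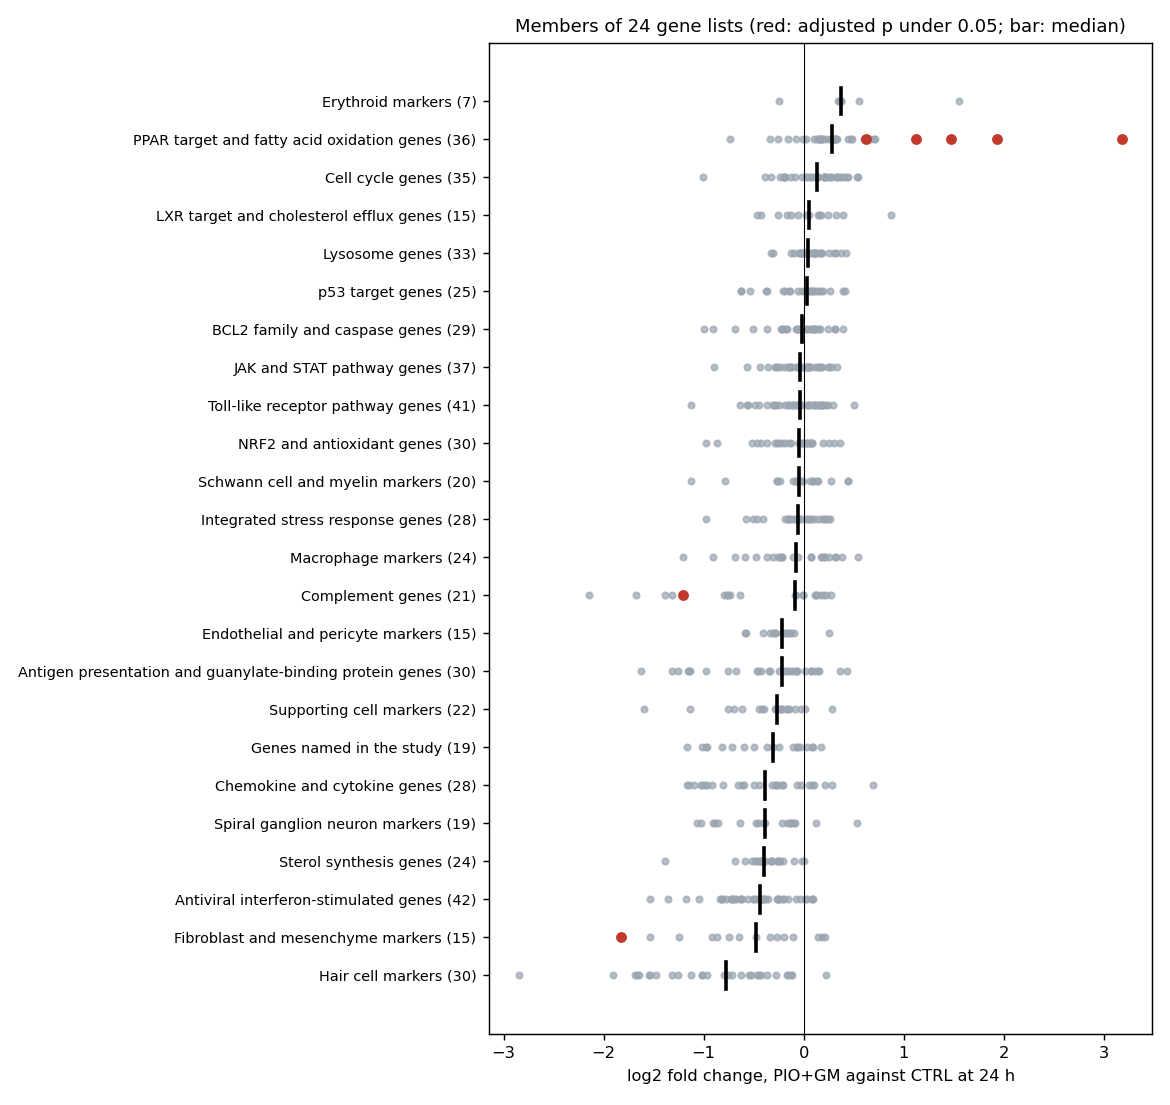
Log2 fold changes (PIO+GM against CTRL at 24 h, edgeR) of each member of 24 gene lists, ordered by the median, which is drawn as a bar, with the number of genes tested in brackets. Red points passed the adjusted p of 0.05: 5 PPAR list genes on the higher side, and Postn and Serping1 on the lower. The hair cell list has the lowest median.

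The combined treatment was then set directly against each drug alone, using the same PIO+GM libraries. Against PIO, 11 genes were higher (0.0674% of those tested) and 1 lower (0.00613%). The higher ones were Crx (log2 fold change 4.50 ± 0.50, edgeR adjusted p = 0.000173), Fer1l4 (3.67 ± 0.41, adjusted p = 0.000173), Ermap (3.23 ± 0.40, adjusted p = 0.000573), Stpg3, Fut4-ps1, Trim17, Gm3336, Pnpla1 and Obox6, together with Itgae and Mc1r, which were named after their values were seen. The lower one was Kcnj13 (log2 fold change -1.98 ± 0.36, edgeR adjusted p = 0.0315). PIO and PIO+GM libraries of the same replicate number deviated together, and with the replicate block 15 genes were higher and 3 lower. Kcnj13 and Obox6 then lost the call (edgeR adjusted p = 0.0653 and 0.0636), and the 3 lower genes, named after their values were seen, were Tril, Lrrc10b and the hair cell marker Slc26a5 (log2 fold change -1.68 ± 0.30, edgeR adjusted p = 0.0371). For the PPAR list the difference from PIO was small. Cpt1a differed by 0.00 ± 0.12, Acadl by 0.01 ± 0.12 and Angptl4 by -0.17 ± 0.39 on the log2 scale, and the list's median was -0.00. Against GM, 4 genes were higher (0.0245%) and 14 lower (0.0858%). Among the 4 were Cpt1a (log2 fold change 1.06 ± 0.12, edgeR adjusted p = 0.00041), Angptl4 (2.67 ± 0.42, adjusted p = 0.0138) and Acadl (0.72 ± 0.12, adjusted p = 0.0226). Among the 14 were Postn (-1.69 ± 0.29, adjusted p = 0.0342), Grm7 (-1.95 ± 0.37, adjusted p = 0.0397), Unc13c and Plppr5. The hair cell list had a median of -0.46 against PIO and of -0.38 against GM, with 0 genes called in edgeR in either without the block. Across all 15897 genes with a GC value, these 2 contrasts had Spearman correlations of -0.32 and -0.23 with transcript GC content.

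Whether the combined effect departed from the sum of the single effects was tested by an interaction of the drugs at 24 h. 0 genes passed in edgeR (0.0% of those tested), 197 had an unadjusted p under 0.05 (1.21%), and DESeq2 and the fit with the replicate block called 0. The share of 1.21% is lower than p-values without any effect would give. The empty result therefore does not show that the single effects add up. The gene with the lowest p was Ermap (interaction 2.13 ± 0.55 on the log2 scale, edgeR adjusted p = 1.0). Erich2 and Malrd1, also among the lowest 4, had an adjusted p of 1.0, and Malrd1 had PIO libraries at 0 counts. Transcript GC content moved with this contrast, with a Spearman correlation of -0.40 across 15897 genes against -0.07 for PIO+GM against CTRL at 24 h, and its part was not tested.

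At 6 h, in other explants, the same treatments gave 261 higher genes (1.60%) and 170 lower genes (1.04%). All 22 genes that were higher at 24 h had a positive log2 fold change at 6 h and 7 were called, and 46 of the 56 lower genes had a negative one with 7 called in that direction. Of all genes, 7828 were positive and 8489 negative at 6 h. At 6 h Cpt1a had a log2 fold change of 0.83 (edgeR adjusted p = 0.00265), and Angptl4 did not pass (adjusted p = 0.107). In the interaction with time 0 genes passed in edgeR (0.0%), 978 had an unadjusted p under 0.05 (5.99%), and DESeq2 called 12. The 4 lowest p-values belonged to interferon-inducible genes. Gbp6 had log2 fold changes of 1.70 at 6 h and 0.14 at 24 h (interaction -1.56 ± 0.27, edgeR adjusted p = 0.184), Gbp10 of 1.64 and 0.15, Trim12a of 1.41 and 0.16, and Parp9 of 1.09 and -0.45, the last 3 with adjusted p = 0.315. Gbp6 and Gbp10 share sequence, with 55.0% and 75.4% of their 76-base windows found in other genes. The 6 h effect ran with transcript GC content (Spearman -0.57 across 15897 genes) and the interaction did too (0.54), and the part of this in the interaction was not tested.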

How the data were processed

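RNA of 24 OC pools was sequenced as 76-base single reads from stranded total RNA libraries. The authors mapped reads with RNA-STAR (mm10 per the submitters' notes) and deposited counts of reads that started within any RefSeq exon of a gene (QuasR qCount), not normalized. Use of strand and reads with several matches are not given in the sources used here. Of 24454 Entrez identifiers, 24381 were matched to a symbol. Samples were grouped by title. In R 4.3.3 with edgeR 4.0.16, counts were scaled by TMM factors (0.974 to 1.03 at 24 h) and filtered with filterByExpr (16317 genes kept). They were fitted with 1 mean for each of the 8 groups over all 24 libraries. Contrasts used the quasi-likelihood F-test, two-sided, Benjamini-Hochberg adjusted over all genes at 0.05. Results given for edgeR are from this fit, without a replicate block, unless another fit is named. SE, in the text and in the figures, is an approximate standard error. It is the absolute log2 fold change divided by the square root of the F statistic. List means are of log2 CPM with a prior count of 2. On simulated counts for 16042 genes of PIO+GM against CTRL, the fit recovered 69.4% of 98 genes changed by 1 log2 unit and 95.1% of 102 changed by 2, with 14 false calls among 179. Scarce genes were not among those changed. Libraries were drawn independently, without the shared deviations of replicate numbers or the unequal Y-linked levels of the data. These rates therefore check the code and do not describe the calls made here. Alternatives used DESeq2 1.42.0 (limma 3.58.1 as edgeR's base), and tables were handled in Python 3.11.

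The labels do not say what a replicate number shares. Numbers were taken to pair groups where all 3 same-number correlations of deviations from the group means passed 0.1, which held at 24 h for PIO and PIO+GM (0.311, 0.688 and 0.423), CTRL and GM (0.428, 0.723 and 0.595) and CTRL and PIO (0.107, 0.561 and 0.227), but not for CTRL, or GM, and PIO+GM or for GM and PIO, where replicate 1 was between -0.025 and 0.028.

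Members and lists were chosen with earlier results of these data known. Genes were named by a rule: among called genes without overlapping CPM, those of greatest fold change (12 a direction at most), in each list up to 4 called genes in each direction and the 3 of lowest p, all genes followed by the study, and the 4 of lowest p in each interaction. Some genes that the rule names are not reported here. The deposited gene lengths were not used. Positions are from GENCODE M21 (GRCm38), promoters from RefSeq.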

Additional observations from a re-analysis of the deposited data

How the results depend on the processing

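Counts of genes past the threshold depended on the fit more than directions did. For PIO+GM against CTRL at 24 h (78 genes, 22 higher and 56 lower), DESeq2 called 254 (80 and 174), edgeR's likelihood ratio test 225 (50 and 175), the 12 libraries of 24 h alone 276 (71 and 205), the 6 libraries alone 40 (7 and 33), and a filter of at least 10 counts in every library 45 (10 and 35). Genes of the main fit were called again in 78 of 78 cases by DESeq2, the likelihood ratio test and the olfactory covariate, and in 26 by the 6 libraries alone. With the Y-linked covariate 35 genes were lower. Both covariates were chosen after seeing the data. Leaving out 1 library gave 15 to 73 genes, 7 to 13 higher and 7 to 60 lower. The cause of these differences was not tested.

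Same-numbered CTRL and PIO+GM libraries deviated from their group means with correlations of 0.012, 0.471 and 0.372 for replicates 1, 2 and 3, and 4 of the 6 libraries correlated best with their own number. Replicates 2 and 3 thus deviated together and replicate 1 did not, so the main fit has no block. With the replicate block, 318 genes were called (67 and 251), including all 78.

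Against PIO (12 genes, 11 higher and 1 lower), the count filter gave 1 (1 and 0), no filter 20 (18 and 2), the likelihood ratio test 56 (44 and 12), DESeq2 35 (25 and 10) and the olfactory covariate 7 (6 higher). Lower genes numbered 3 with the replicate block, 5 with the 12 libraries and 0 with the Y-linked covariate. Leaving out a library gave 4 to 17 genes (4 to 15 higher, 0 to 2 lower). Against GM (18 genes, 4 higher and 14 lower), the replicate block gave 98 (16 and 82), the likelihood ratio test 72 (8 and 64), DESeq2 83 (19 and 64), the 12 libraries 40 (8 and 32) and the Y-linked covariate 4 (2 and 2), and without a filter 9 were lower. Leaving out a library gave 1 to 8 (1 to 2 higher, 0 to 6 lower). The time interaction had 2 genes with the replicate block, 15 with the likelihood ratio test and 12 with DESeq2, all lower, and 0 to 1 without a library. The drug interaction had 0 in edgeR, with or without the replicate block, in DESeq2 and in the likelihood ratio test.

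Without 1 library, list medians ranged from -0.53 to -0.15 (complement), -0.55 to 0.066 (chemokine and cytokine), -0.0074 to 0.12 (lysosome), -0.57 to 0.28 (spiral ganglion neuron) and 0.0050 to 0.68 (erythroid). Among named genes that were not called, signs turned without a library for Ccl2 (log2 fold change -1.47 to 0.36), Ccl9 (-0.16 to 0.38), Cxcl10 (-0.45 to 0.45), Erich2 (-0.42 to 0.056), Gbp10 (-0.064 to 0.36), Gbp6 (-0.072 to 0.48), Irf3 (-0.063 to 0.18), Irf7 (-0.57 to 0.26), Mal (-0.27 to 0.055), Malrd1 (-1.80 to 0.069), Myd88 (-0.15 to 0.12), Nefl (-1.44 to 0.34), Scn9a (-1.61 to 0.28) and Tubb3 (-0.70 to 0.093). Cxcl10 was at 0.10 with the replicate block, 0.15 with the Y-linked and 0.011 with the olfactory covariate, and Irf7 and Myd88 at 0.050 and 0.024 with the Y-linked covariate. Of the other alternatives to a named gene's fold change, 1841 kept direction and side of the threshold, 113 lost the call and 54 gained one.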

Other observations

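Replicate 2 had the lowest level of Ocm in each of the 2 groups, at 0.227 CPM with both drugs and 7.13 CPM in CTRL, and of Slc26a5, at 1.59 and 5.62 CPM. The summed CPM of olfactory and vomeronasal receptor genes was 52.7, 90.8 and 165 with both drugs and 122, 39.1 and 141 in CTRL, so the groups overlapped. Each group held 3 pools, and the summed Y-linked level was unequal between the groups. Whole-explant counts cannot tell a loss of cells from a lower level per cell.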
